A study of Homo sapiens with 10 samples.

Results

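TRAF adaptors and inhibitor-of-apoptosis (IAP) ligases form the relay between receptors of the tumour necrosis factor (TNF) family and the NF-kB and cell death machinery. The relay was followed here through the 12 array probes, of 48107 deposited, whose symbol in the platform's gene table was that of a listed gene. The list held 9 genes: the IAP ligases BIRC2, BIRC3 and XIAP, the adaptors TRAF1, TRAF2, TRAF3, TRAF5 and TRAF6, and the kinase MAP3K14. Probes were found for 6 of them (of 18352 genes named in that table), namely BIRC2, TRAF1, TRAF3, TRAF5, TRAF6 and MAP3K14. BIRC3, XIAP and TRAF2 had none in the table used here and were not analysed, so BIRC2 stands alone for the IAP ligases.

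The probes were read in the established human lymphoma line OCI-LY10, which is of the diffuse large B-cell type and of its activated B-cell subtype. All cells were cultured without other agents named in the labels and harvested after 18 hours with either 1 micromolar CC-122 (5 arrays) or its solvent DMSO (5 arrays). CC-122 (avadomide) attaches to cereblon, by which a ubiquitin ligase takes hold of its substrates, and leads to the loss of the lymphoid transcription factors Ikaros and Aiolos as proteins. The labels do not say that the 5 arrays of a group came from separate cultures. The p-values thus reflect the spread among these arrays alone, part of which may be technical, and they describe this cell line alone.

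TRAF proteins bind the tails of TNF family receptors once these are engaged, and TRAF2, TRAF5 and TRAF6 start the canonical NF-kB pathway from there. In resting cells TRAF3 brings the kinase NIK, the product of MAP3K14, to a complex with TRAF2 and the IAP ligases cIAP1 (BIRC2) and cIAP2 (BIRC3), which tag NIK for destruction. When a receptor such as CD40 or the BAFF receptor draws TRAF3 away, NIK builds up and drives the non-canonical pathway through NFKB2 and RELB. XIAP binds and blocks caspases directly, while BIRC3 and TRAF1 are known as NF-kB target genes. Lymphomas of the activated B-cell subtype are known for constant NF-kB activity.

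The stretches upstream of BIRC2, BIRC3 and TRAF3 are shown because BIRC2 is the member with the clearest change, BIRC3 is its neighbour and closest relative, and TRAF3 holds the remaining match to an NF-kB motif. Each is the 250 bases before an annotated start, 5′ to 3′ on the gene's strand, from RefSeq on GRCh38.p14. All 3 lie on the plus strand, at chr11:102346964-102347213 for BIRC2 (for the more upstream of its annotated starts), chr11:102317234-102317483 for BIRC3 and chr14:102777199-102777448 for TRAF3. Capitals mark matches on either strand to the kB consensus, the motif bound by NF-kB.
BIRC2: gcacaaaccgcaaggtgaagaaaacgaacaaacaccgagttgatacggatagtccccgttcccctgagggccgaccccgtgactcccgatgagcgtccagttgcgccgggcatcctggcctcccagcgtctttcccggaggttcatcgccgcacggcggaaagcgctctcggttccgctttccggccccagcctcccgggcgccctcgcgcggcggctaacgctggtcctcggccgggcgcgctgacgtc
BIRC3: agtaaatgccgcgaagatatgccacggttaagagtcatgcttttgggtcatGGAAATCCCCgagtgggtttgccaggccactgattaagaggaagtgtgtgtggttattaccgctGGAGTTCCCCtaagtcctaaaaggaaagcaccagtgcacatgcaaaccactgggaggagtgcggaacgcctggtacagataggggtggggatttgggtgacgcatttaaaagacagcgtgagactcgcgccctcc
TRAF3: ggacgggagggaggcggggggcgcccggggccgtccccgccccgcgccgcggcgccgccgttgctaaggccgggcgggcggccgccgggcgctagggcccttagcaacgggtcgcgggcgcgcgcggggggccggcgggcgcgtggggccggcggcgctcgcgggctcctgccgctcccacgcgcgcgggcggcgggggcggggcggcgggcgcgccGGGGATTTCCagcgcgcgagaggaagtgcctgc

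BIRC3 held 2 matches to the kB consensus, both on the minus strand, at -199 to -190 and -135 to -126 from its start. TRAF3 held 1, on the plus strand, at -33 to -24. Neither of the upstream windows of BIRC2, nor any of TRAF1, TRAF2, TRAF5, TRAF6, MAP3K14 or XIAP, held a match. All 9 genes were found in the RefSeq table, with 16 windows, and 2 of these had a kB match, as against 9.96% of all 35116 windows of that length. A match describes the letters of a window and shows no binding.

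Between 18043 and 18844 probes were detected per array, and the raw median of an array was 74.0 to 81.6, apart from 108.9 on CC-122 replicate 3. All values below are log2 intensities after background correction and normalization across arrays, unless called raw. A probe was tested if it was detected on at least 5 arrays, and called if its adjusted p was below 0.05 (limma, Benjamini-Hochberg over all 17125 probes tested). Of the 6 B-cell lymphoma markers with a probe, 6 were detected on all 10 arrays (MS4A1, CD79A, CD79B, CD22, IRF4 and TNFRSF13B). Of 8 T and NK cell markers 0 were detected on 5 or more arrays. CD14 and FCGR3A among 6 monocyte markers, PPBP among 4 erythroid and platelet markers, and EPCAM among 6 fibroblast and epithelial markers were.

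BIRC2 rose after CC-122 on both of its probes, TRAF1 rose by less and with a weaker call, and no tested probe of TRAF3, TRAF5, TRAF6 or MAP3K14 passed the test. Of the 12 probes 8 were tested, each detected on all 10 arrays, and the other 4, all of TRAF5, were too dim. Of these 8, 3 were higher, 0 lower and 5 not called, as against 10.1% of all probes tested that were called, 5.77% higher and 4.34% lower. For 2 of the 8, both of BIRC2, no CC-122 array reached into the DMSO range, as against 10.6% of all probes tested whose groups did not overlap. The median log2 fold change was 0.15 over the 8 probes and -0.0155 over all probes tested. BIRC2 and TRAF6 count with 2 probes each, so the 8 probes stand for 6 genes. In a bulk sample more cells with a transcript and more of it per cell cannot be told apart.

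**Figure D1:**
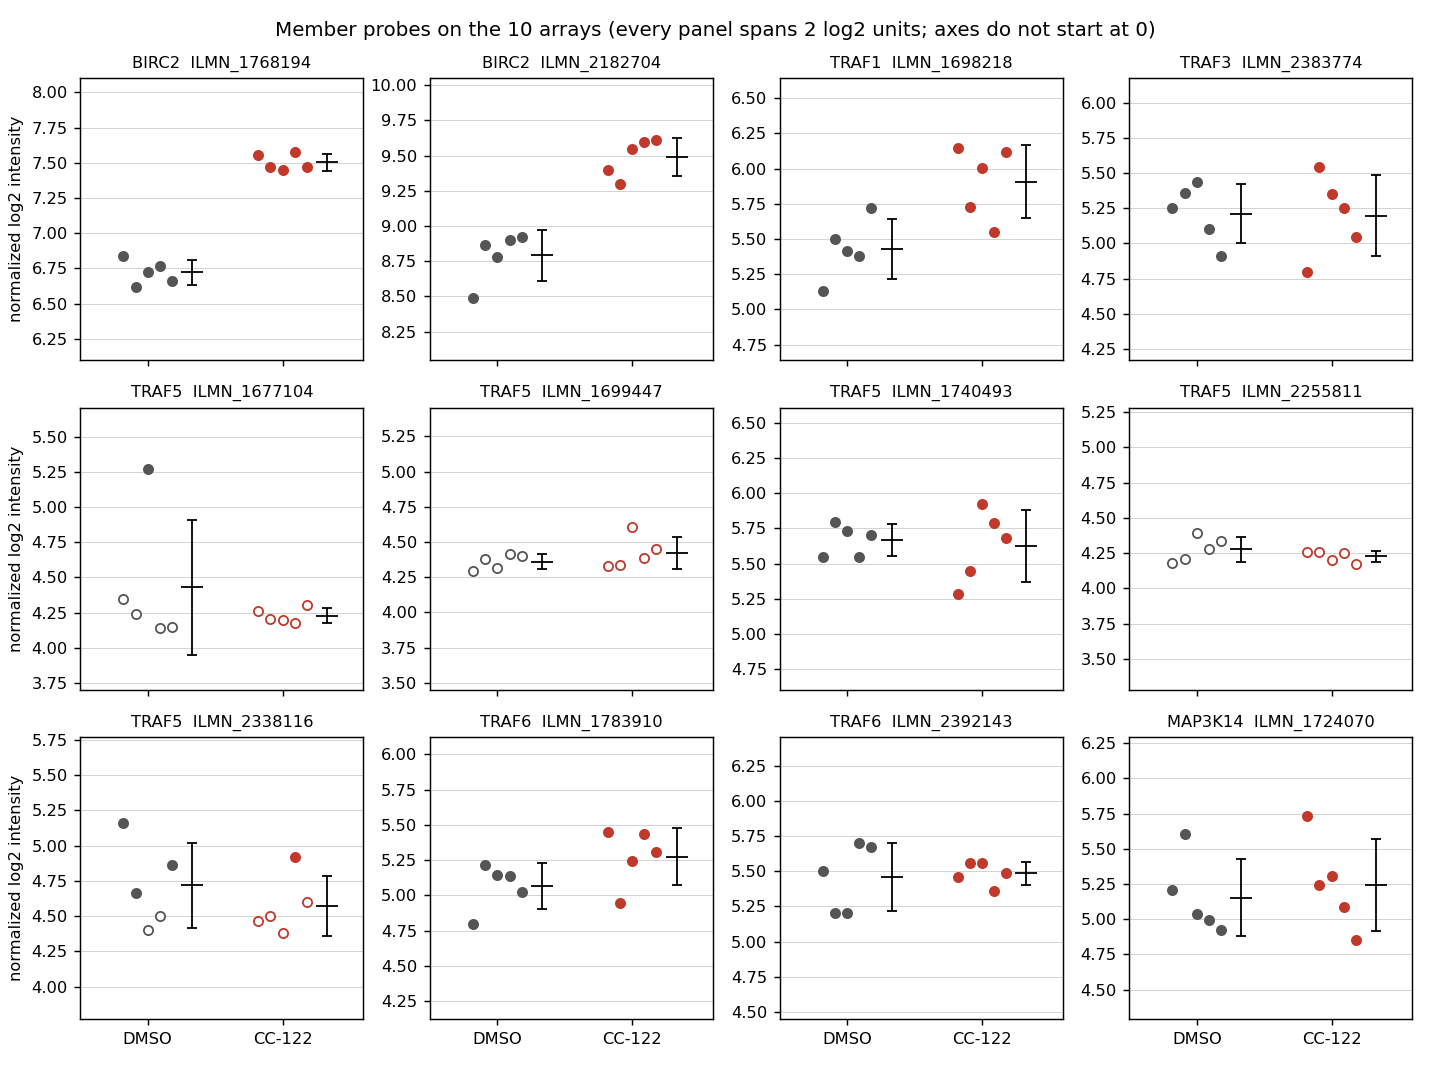
Normalized log2 intensity (vertical axis, 2 log2 units in each panel) of the 12 member probes on 5 DMSO and 5 CC-122 arrays. Points are arrays, open points were not detected there, and bars are the mean ± SD. The CC-122 points of both BIRC2 probes lie above all DMSO points, those of TRAF1 partly overlap, and 4 TRAF5 probes are mostly open.

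BIRC2 encodes cIAP1, a RING ubiquitin ligase that marks NIK for destruction and, at the TNF receptor, modifies RIPK1 so that the cell survives. Its probe ILMN_1768194 read 6.84, 6.62, 6.72, 6.77 and 6.66 on DMSO replicates 1 to 5. The CC-122 replicates, in the same order, read 7.55, 7.47, 7.45, 7.58 and 7.47. The groups were apart by more than the range within either, and no array stood out. The mean went from 6.72 ± 0.09 to 7.50 ± 0.06 (SD, n = 5 in each group). The rise was 0.78 ± 0.07 on the log2 scale (SE), or 1.72-fold with a 95% interval from 1.55 to 1.90 (adjusted p = 9.99e-06 from limma). Of all 17125 probes tested, 196 rose by more.

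The brighter BIRC2 probe, ILMN_2182704, read 8.49, 8.87, 8.78, 8.90 and 8.92 on DMSO replicates 1 to 5. Replicates 1 to 5 of CC-122 read 9.40, 9.30, 9.55, 9.60 and 9.61. Again all CC-122 arrays were above all DMSO arrays, and DMSO replicate 1 was the lowest of the 10. The mean went from 8.79 ± 0.18 to 9.49 ± 0.14 (SD, n = 5), a rise of 0.70 ± 0.10 on the log2 scale (SE). That is 1.62-fold, with a 95% interval from 1.40 to 1.88 (adjusted p = 5.61e-04 from limma), and 242 probes rose by more. Raw intensities showed the same separation. They were 370.2 to 530.0 on DMSO arrays and 569.6 to 1439 on CC-122 arrays for this probe, and 144.7 to 166.0 against 199.2 to 400.5 for the other. Both upper ends, 1439 and 400.5, were on CC-122 replicate 3, the array with the highest raw median (108.9).

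The probes of BIRC2 could be set against each other within each array. The value of ILMN_1768194 less that of ILMN_2182704 was -2.07 ± 0.25 on DMSO and -1.99 ± 0.14 on CC-122 arrays (SD, n = 5). This difference moved by 0.08, which an exact two-sided permutation test over the 252 splits of the arrays did not call (p = 0.556, adjusted p = 0.556 over 2 such pairs of probes, smallest possible p = 0.00794). With a fixed background offset it moved by -0.06, so which probe rose more is not settled. Both probes stayed called under each of the 19 alternatives, with log2 fold changes of 0.54 to 0.81 for ILMN_1768194 and 0.62 to 0.75 for ILMN_2182704. Without the bright array CC-122 replicate 3, they were 0.80 and 0.68.

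The adaptor TRAF1 has no RING domain of its own, pairs with TRAF2 and helps to bring cIAP proteins to receptors. Its probe ILMN_1698218 read 5.13, 5.50, 5.41, 5.38 and 5.72 on DMSO replicates 1 to 5. With CC-122 it read, in that order, 6.15, 5.72, 6.003, 5.55 and 6.12. The groups overlapped, since CC-122 replicate 4 lay below DMSO replicate 5, while the other 4 CC-122 arrays were above the highest DMSO array, CC-122 replicate 2 only narrowly. The rise was 0.48 ± 0.13 on the log2 scale (SE), or 1.39-fold with a 95% interval from 1.14 to 1.71 (adjusted p = 0.0409 from limma). The probe was near background, at 1.16 to 1.78 times the median raw intensity of its array.

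The call of TRAF1 was the least firm of the 3. It was lost in 9 of the 19 alternatives, with adjusted p from 0.0581 to 0.0962, namely when DMSO replicate 1, 2, 3 or 4 was left out, when CC-122 replicate 1, 3 or 5 was, with the replicate number as a block and without the filter on dim probes. Its rise was 0.25 when a fixed offset was used and 0.22 on uncorrected intensities, both still called.

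**Figure D2:**
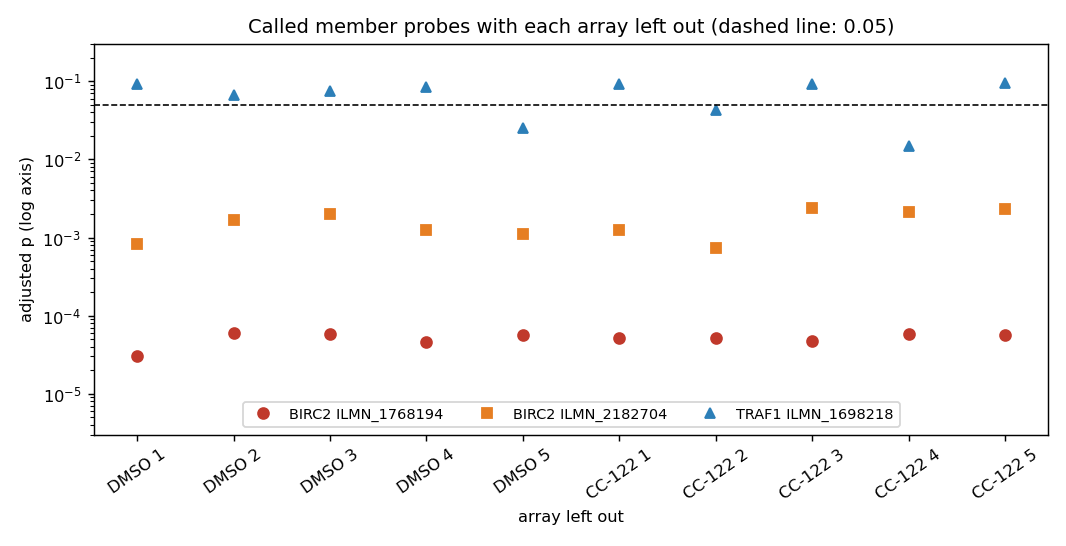
Adjusted p (vertical axis, log scale, limma) of the 3 called member probes when each of the 10 arrays (horizontal axis) was left out, with a dashed line at 0.05. The points of both BIRC2 probes stay below the line for every array left out, and those of TRAF1 lie above it for 7 of the 10 arrays.

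TRAF3 and NIK, the adaptor and the kinase that BIRC2 acts on in the non-canonical pathway, did not pass the test. The TRAF3 probe ILMN_2383774 read 5.25, 5.36, 5.43, 5.10 and 4.91 on DMSO replicates 1 to 5. On CC-122 replicates 1 to 5 it read 4.80, 5.54, 5.35, 5.25 and 5.05. The groups covered each other, with the highest and the lowest value both on CC-122 arrays. The difference was -0.01, with a 95% interval from -0.32 to 0.29 (adjusted p = 0.974 from limma).

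The MAP3K14 probe ILMN_1724070 read 5.21, 5.61, 5.04, 5.00 and 4.92 on DMSO replicates 1 to 5. The CC-122 replicates, in the same order, read 5.73, 5.24, 5.30, 5.09 and 4.85. The spread within each group, 0.27 on DMSO and 0.33 on CC-122 arrays (SD, n = 5), was wider than the difference between them. That difference was 0.09, with a 95% interval from -0.27 to 0.45 (adjusted p = 0.817 from limma). NIK is known to be set mainly by the stability of the protein, which an array does not measure.

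TRAF6, a RING ligase that serves CD40 as well as the Toll-like and interleukin-1 receptors, had 2 tested probes. ILMN_1783910 read 4.80, 5.22, 5.15, 5.14 and 5.03 on DMSO replicates 1 to 5. Replicates 1 to 5 of CC-122 read 5.45, 4.94, 5.24, 5.43 and 5.31. On 4 of the CC-122 arrays it was above the highest DMSO array, but CC-122 replicate 2 was below the DMSO mean. The difference was 0.21, with a 95% interval from -0.03 to 0.45 (adjusted p = 0.289 from limma).

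The other TRAF6 probe, ILMN_2392143, read 5.50, 5.20, 5.20, 5.70 and 5.67 on DMSO replicates 1 to 5. With CC-122 it read, in that order, 5.46, 5.56, 5.56, 5.36 and 5.49. Here the CC-122 arrays lay inside the DMSO range. The difference was 0.03, with a 95% interval from -0.21 to 0.26 (adjusted p = 0.919 from limma). Within arrays, the value of ILMN_1783910 less that of ILMN_2392143 moved by 0.18 between the groups, which the exact permutation test did not call (p = 0.365, adjusted p = 0.556).

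TRAF5, a close relative of TRAF2 that serves CD40 and the lymphotoxin beta receptor, had 5 probes, more than any other member, and 1 bright enough to be tested. ILMN_1740493 read 5.54, 5.80, 5.73, 5.55 and 5.70 on DMSO replicates 1 to 5. On CC-122 replicates 1 to 5 it read 5.29, 5.44, 5.92, 5.79 and 5.68. The CC-122 arrays reached both below and above the DMSO range. The difference was -0.04, with a 95% interval from -0.29 to 0.21 (adjusted p = 0.894 from limma), and -0.11 without CC-122 replicate 3, which was the highest array.

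Of the remaining TRAF5 probes, ILMN_1699447 and ILMN_2255811 were detected on 0 of 10 arrays. ILMN_1677104 was detected on 1 array, DMSO replicate 3, where it read 5.27 as against 4.14 to 4.35 on the other DMSO arrays. ILMN_2338116 was detected on 3 DMSO arrays and 1 CC-122 array. Without the filter, these 4 probes gave log2 differences from -0.20 to 0.06, with adjusted p from 0.772 to 0.817 (limma). Most of their arrays are not above background, so these differences do not measure a change in transcript. The -0.20 was that of ILMN_1677104, with its high DMSO replicate 3. The platform table ties ILMN_1677104 and ILMN_1699447 each to a transcript record of its own and the other 3 to a shared one, and levels of different probes cannot be compared.

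**Figure D3:**
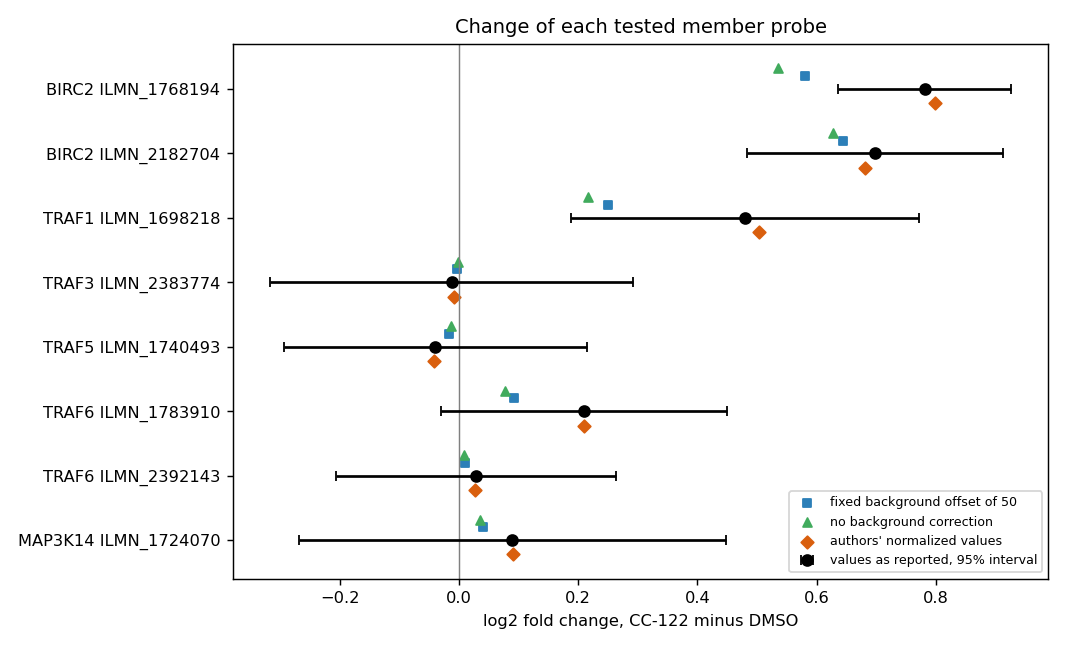
Log2 fold change of CC-122 minus DMSO (horizontal axis) of the 8 tested member probes, with 95% intervals from limma, and the same value under 3 other ways of making the intensities. The intervals of BIRC2 and TRAF1 lie above 0 and those of the other 5 probes include 0, while the fixed offset and the uncorrected values draw dim probes toward 0.

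The intervals show what the dim probes could have missed. Among the 5 probes not called, the upper bounds lay between 0.21 and 0.45 on the log2 scale and the lower bounds between -0.32 and -0.03. A log2 rise of 0.70 or 0.78, as on the BIRC2 probes, was thus outside the interval of each of these probes. A log2 rise of 0.2 lay inside each of them. The offset of 16 draws changes of dim probes toward 0. A rise in transcript by the same fold as BIRC2 is thus not excluded for them. These probes sat at 1.07 to 1.72 times the median raw intensity of their array, as against 1.93 to 13.2 for BIRC2.

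Around the members, 5 of 7 ligands and 5 of 10 receptors and receptor adaptors tested were higher after CC-122. LTB, TNF and CD40 were among the higher genes, and the other 7 genes were not called. Whether the lists differ from each other was not tested. The surrounding genes were given in 8 lists with 90 genes, of which 59 could be tested, each through its brightest probe. Of these 59, 11 were higher, 3 lower and 45 not called. Over all 9041 genes tested this way 12.5% were called, 7.13% higher and 5.38% lower, with a median of -0.014. Several of these genes are known NF-kB targets, and some were already known from these arrays to rise, so the lists are not independent evidence.

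Of the 7 ligands tested, 5 were higher and 2 not called, with a median log2 fold change of 0.66. LTB, which joins LTA to form the ligand of the lymphotoxin beta receptor, went from 9.28 to 9.42 on DMSO arrays to 10.74 to 11.02 on CC-122 arrays. Its rise was 1.49 ± 0.07 (SE, adjusted p = 7.40e-08), and its other tested probe gave 1.58. TNFSF13B, the B-cell survival factor BAFF, rose by 0.83 ± 0.16 and by 0.96 on its other probe. TNF rose by 0.90 ± 0.09 and LTA by 0.66 ± 0.09. CD70, the ligand of CD27, rose by 0.45 ± 0.11 with the weakest call (adjusted p = 0.0181 from limma). Over the alternatives its adjusted p reached 0.0499 and its lowest rise was 0.31. The groups overlapped for none of these 5 genes, but these were picked by their call on the same values. Over all probes tested, 10.6% had groups that did not overlap. For CD70 the gap was narrow, from 7.15 on the highest DMSO array to 7.21 on the lowest CC-122 array. TNFSF13B rose by 0.44 with a fixed offset and by 0.38 on uncorrected intensities.

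Of the 10 receptors and receptor adaptors tested, 5 were higher and 5 not called, with a median of 0.35. TNFRSF11A (RANK) rose by 1.02 ± 0.11 (SE) and TNFRSF4 (OX40) by 0.84 ± 0.15, from a DMSO level near background. They were detected on 4 and 3 of the 5 DMSO arrays and their 5 CC-122 arrays were enough to pass the filter, so the size of these rises is uncertain. Among probes detected on all 10 arrays 3 receptors were called, as against 1825 of all 13419 such probes. TNFRSF13B, TNFRSF17, CD27 and the adaptor TRADD were also detected on all 10 arrays and were not called. CD40, which recruits TRAF1, TRAF2, TRAF3, TRAF5 and TRAF6, went from 7.06 to 7.33 on DMSO arrays to 7.87 to 8.18 on CC-122 arrays, a rise of 0.84 ± 0.08 (adjusted p = 3.79e-05). The TNF receptors TNFRSF1A and TNFRSF1B rose by 0.59 ± 0.10 and 0.49 ± 0.09. CD40 kept most of its size with a fixed offset, at 0.67, while the others were at 0.48 (TNFRSF11A), 0.37 (TNFRSF4), 0.28 (TNFRSF1A) and 0.33 (TNFRSF1B), all still called.

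Of 16 kinases, ligases and adaptors that work with the TRAF proteins, 1 was lower and 15 were not called, with a median of -0.06. That is 6.25% called, as against 12.5% of all genes. Most act downstream of TRAF proteins, but MYD88, IRAK1 and BCL10, all uncalled, act upstream of TRAF6. The gene that fell was MAP3K5 (ASK1), a stress kinase that TRAF2 and TRAF6 engage, by a log2 value of 0.41 ± 0.10 (SE, adjusted p = 0.0204 from limma). This call was lost without DMSO replicate 4 (adjusted p = 0.0525). MAP3K5 was at -0.22 with a fixed offset and at -0.19 on uncorrected intensities. The number called in this list ranged from 0 to 4 over the alternatives.

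Among the 5 NF-kB subunits, 1 was lower and 4 were not called, with a median of -0.21 over their brightest probes. That is 20% called, as against 12.5% of all genes, and 5 genes are too few to tell these shares apart. The brightest probes of all 5 were below 0, but the other tested probe of REL was at 0.12, and that of NFKB2 at -0.36. RELB, the partner of NFKB2 in the non-canonical pathway, fell by 0.40 ± 0.08 (SE, adjusted p = 0.00591), from 7.71 ± 0.13 to 7.31 ± 0.09 (SD, n = 5). In the list of inhibitors and deubiquitinases, 1 of 11 tested genes was lower and 10 were not called. That is 9.09% called, as against 12.5% of all genes. This list also held TRAF3IP2, an adaptor that activates NF-kB, which was not called. NFKBIB, which holds NF-kB in the cytoplasm, fell by 0.59 ± 0.08, with its other probe at -0.24, and by 0.38 without background correction. TNFAIP3 (A20) and NFKBIA, feedback inhibitors that NF-kB induces, were picked after their values were seen. TNFAIP3 differed by 0.41, with groups that did not overlap and a 95% interval from 0.12 to 0.70 (adjusted p = 0.0798), and NFKBIA by 0.07, with a 95% interval from -0.10 to 0.23 (adjusted p = 0.678).

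Among other TRAF and TRAF-interacting genes, other BIR-domain genes, and IAP antagonists and caspases, XAF1 alone of 10 tested was called. This share was near the 12.5% over all genes. None of the 3 other TRAF or TRAF-interacting genes tested (TRAF4, TRAF7 and TRAIP) passed the test. Neither did the 2 other BIR-domain genes tested (BIRC5 and BIRC6). This held in the reported fit and in each alternative run. The highest of these 5 values was 0.18 and the lowest -0.19. Of 5 IAP antagonists and caspases tested, XAF1 was higher and 4 were not called. XAF1, an interferon-induced protein that binds XIAP, read 5.84 to 6.36 on DMSO and 6.94 to 7.14 on CC-122 arrays, a rise of 0.87 ± 0.09 (SE, adjusted p = 6.26e-05). It rose by 0.53 without background correction. DIABLO (SMAC), the mitochondrial protein that displaces caspases from IAP proteins, differed by 0.003 on its brightest probe.

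**Figure D4:**
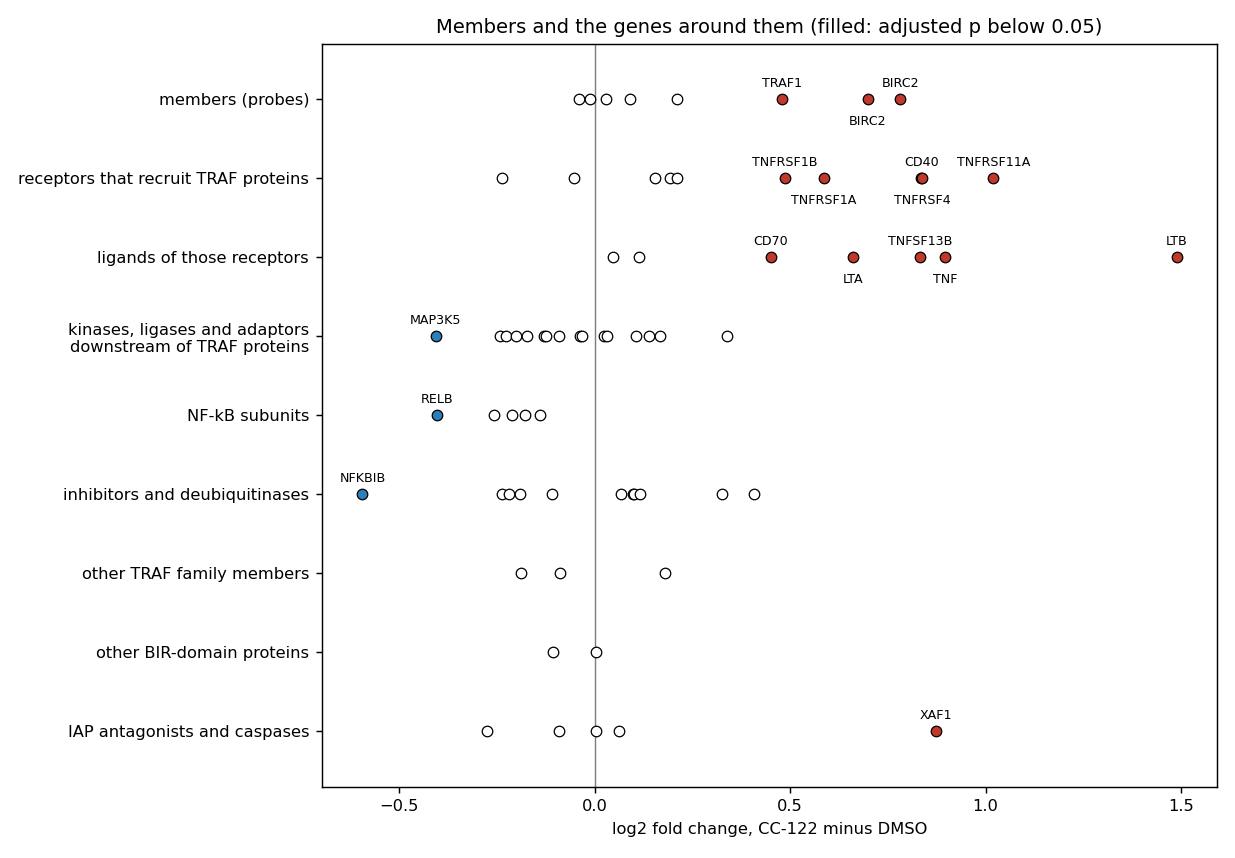
Log2 fold change of CC-122 minus DMSO (horizontal axis) for the 8 tested member probes and for the 59 tested genes of the 8 lists, each point a probe or gene, filled and named where the adjusted p was below 0.05. Filled points to the right are 5 ligands, 5 receptors, XAF1 and the probes of BIRC2 and TRAF1, those to the left are MAP3K5, RELB and NFKBIB, and 45 genes are open.

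The genes whose course over the 10 arrays was most like that of BIRC2 probe ILMN_1768194 were HLA-DMB, SGPP2, C12orf57, MARCKS and UAP1. Likeness was the root mean square difference between profiles centred on their own mean, which was 0.050 to 0.079 log2 units for these 5 and had a median of 0.43 over the 9041 genes. Their log2 fold changes were 0.73 to 0.85, close to the 0.78 of the BIRC2 probe. The measure follows the difference between the groups, so it picks genes that rose by about the same amount with little spread.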

How the data were processed

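Total RNA of 10 OCI-LY10 samples was labelled with biotin for Illumina arrays, per the labels' protocols. The authors deposited 1 linear intensity and 1 detection p-value per probe and array, not normalized by the authors, and their own normalized values, log2 by comparison with those computed here, for 34468 probes. For the scanner and its software, the sources used here give no name. The authors' log2 values, with column medians of 4.54, each correlated best with their own array, at 0.9999 or more, which settles scale and direction but not the method.

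Normalization here used neqc (limma 3.58.1, R 4.3.3), with negative controls inferred from the detection p-values, an offset of 16 and quantile scaling, after 1 probe with a missing value was left out. Symbols came from the platform's table, updated by gene ID to GRCh38.p14 where matched (26326 of 26362 probes). Of the deposited probes, 21745 were not listed there. Probes with a detection p-value under 0.05 on 5 or more arrays were tested, by lmFit and eBayes, two-sided. The number of arrays limits the precision. The calculation was tested on simulated data.

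The members, the lists and the rule for named genes (each member, up to 5 called genes per list with the largest change, 5 genes with the most similar profile) were chosen with earlier results of these data known. Alternatives were other background corrections, scaling, filters and fits, the authors' values, a mean over probes (lists only) and each array left out. No column of the files was left unused, and no pair of arrays was identical. The files and labels give no batch.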

Additional observations from a re-analysis of the deposited data

Results flagged for a closer look

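Of 52 sets of 5 arrays examined (12 member probes and 14 named pathway genes in each group), 2 had an array far from the others, and chance marks about 1 in 20. TRAF5 probe ILMN_1677104 read 5.27 on DMSO replicate 3, where the next highest DMSO array was at 4.35, a gap of 0.818 of the group's range. It was the only array on which this probe was detected. TNFSF13B read 4.66 on DMSO replicate 5, below the next lowest DMSO array at 5.35, a gap of 0.713 of the range. Without that array its rise was 0.66 on the log2 scale (adjusted p = 0.00110 from limma).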

How the results depend on the processing

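The 19 alternatives (20 for the lists) were 10 fits without 1 array each and 9 other settings. The number of probes called, 1732 as reported, ran from 1371 to 2199, and member probes called were 2 or 3 throughout. Over the 8 tested member probes 143 of 152 comparisons kept direction and side of the threshold or stayed uncalled, and the other 9 were those of TRAF1. Direction of uncalled probes could turn: TRAF3 ran from -0.10 to 0.09. Pathway genes called, 14 as reported, were 22 without background correction. Called receptors were 3 among probes detected on all 10 arrays, which leaves out TNFRSF4 and TNFRSF11A. Counts of called kinases, ligases and adaptors (1 as reported) were 3 with a fixed offset, with all-array detection and with an intensity trend, 4 without background correction, and 2 with the authors' values and with the mean of probes. NF-kB subunits called (1 as reported) were 2 in those same 6 settings. Inhibitors and deubiquitinases (1 as reported) were 3 with a fixed offset, without background correction and with an intensity trend, and 2 with the replicate block. IAP antagonists and caspases (1 as reported) were 2 with a fixed offset, without background correction, with all-array detection, with an intensity trend, with array weights and with the authors' values. With 1 array left out these lists ranged from 0 to 2, 1 to 2, 1 to 2 and 1 to 2. The causes were not tested. Replicate numbers are shared by the groups, and DMSO and CC-122 samples of the same number carry consecutive numbers in their descriptions. The labels do not state a pairing, so whether the arrays form matched sets is not settled. Arrays of the same number deviated together weakly (r from -0.005 to 0.14). Each array was set against the 5 arrays of the other group, and 6 of 10 were closest to their own number. Arrays of different numbers gave r from -0.14 to 0.08. The reported fit left a pairing by number out. With the replicate block 1501 probes were called, and TRAF1 had an adjusted p of 0.0581.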

Other observations

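The genes beside the called members on their chromosomes were chosen by position. TMEM123, next to BIRC2 on chromosome 11 on the side away from BIRC3, had a log2 difference of 0.02 ± 0.08 (SE, adjusted p = 0.937 from limma). YAP1 and MMP7, further out, were not tested. Beside TRAF1 on chromosome 9, C5, a complement component, rose by 0.80 ± 0.09 (adjusted p = 7.12e-05), which was more than TRAF1 itself, and PHF19 on the other side differed by 0.02 ± 0.07 (adjusted p = 0.931). CNTRL, a centriole protein beyond C5, fell by 0.84 ± 0.10 (adjusted p = 2.06e-04). The difference between these neighbours and TRAF1 was not tested.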
